A study of Rattus norvegicus with 12 samples.

Results

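The comparison described here set depolarized rat ventral midbrain cultures collected 2 h after the end of a depolarizing treatment against depolarized cultures collected 30 min after it. Its members are 6 of the 12 arrays of the series, 3 per collection time, chosen by their labels, and every one of the 15866 probe sets that is not an array control was tested. The remaining 6 arrays, from control cultures of the same collection times, give the same time difference without depolarization. All cultures were grown from ventral midbrain of CD1 rat embryos at day 12, for 6 days with basic fibroblast growth factor at 20 ng/ml and Sonic hedgehog at 50 ng/ml and for 3 more days with neither factor, in serum-free medium with B27. On day 9 in vitro the depolarized groups received 56 mM KCl for 2 h, after which the depolarizing medium was changed, and RNA was taken 30 min or 2 h later. The control groups stayed in control medium for the same total time, and the labels describe no medium change for them. The embryos came from 4 dams, were combined and split into 3 groups, and each array carries the pooled RNA of duplicate cultures, so that the spread between arrays is that of pooled cultures and not of animals. Whether the 30 min and the 2 h cultures derive from one preparation is not in the labels, so that collection time and preparation cannot be told apart within a condition. The replicate numbers are 1 to 3 at 30 min and 4 to 6 at 2 h.

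High extracellular KCl depolarizes neurons and opens voltage-gated calcium channels, and calcium signalling then starts transcription in waves. Immediate-early genes such as Fos, Jun and the Egr family are transcribed at once, without new protein synthesis, and their mRNAs are short-lived. Late-response genes, which encode secreted peptides, synaptic proteins and enzymes, follow, many of them controlled by factors made in the first wave. After the stimulus ends, early mRNAs decay while slower transcripts can still accumulate.

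Values are log2 expression summaries of probe sets, differences are 2 h minus 30 min in log2 units, and a call is an adjusted p under 0.05 by limma (Benjamini-Hochberg over all probe sets). Depolarized arrays of one collection time correlated at 0.9957 to 0.9979 and those of different collection times at 0.9803 to 0.9844. The first principal component of the 6 depolarized arrays, with 77.8% of their variance, separated the collection times. Between 30 min and 2 h, 6507 probe sets (41%) changed in depolarized cultures, 3046 rising (19.2%) and 3461 falling (21.8%). A change of at least 2-fold was called for 229 that rose (1.44%) and 86 that fell (0.542%), and the 3 and 3 arrays did not overlap for 7916 probe sets (49.9%). At an unadjusted p under 0.05, 7784 probe sets (49.1%) passed.

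Much of this time difference was present without depolarization. In controls 5604 probe sets (35.3%) changed between the same collections, 2874 rising (18.1%) and 2730 falling (17.2%). Over all probe sets the time differences in depolarized and in control cultures, which share no array, correlated with a Pearson r of 0.67, given as a description. The excess, which is the depolarized time difference minus the control time difference, was tested as an interaction and was called for 2055 probe sets (13%), 978 positive (6.16%) and 1077 negative (6.79%). Of the 6507 changes in depolarized cultures, 2932 (45.1%) were called with the same sign in controls without an excess call, and 1374 (21.1%) carried an excess call of their own sign. A further 2022 (31.1%) were called neither in controls nor in the excess, and 179 (2.75%) had an excess against their sign. In bulk RNA, fewer cells of a type and less RNA per cell cannot be told apart.

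**Figure D1:**
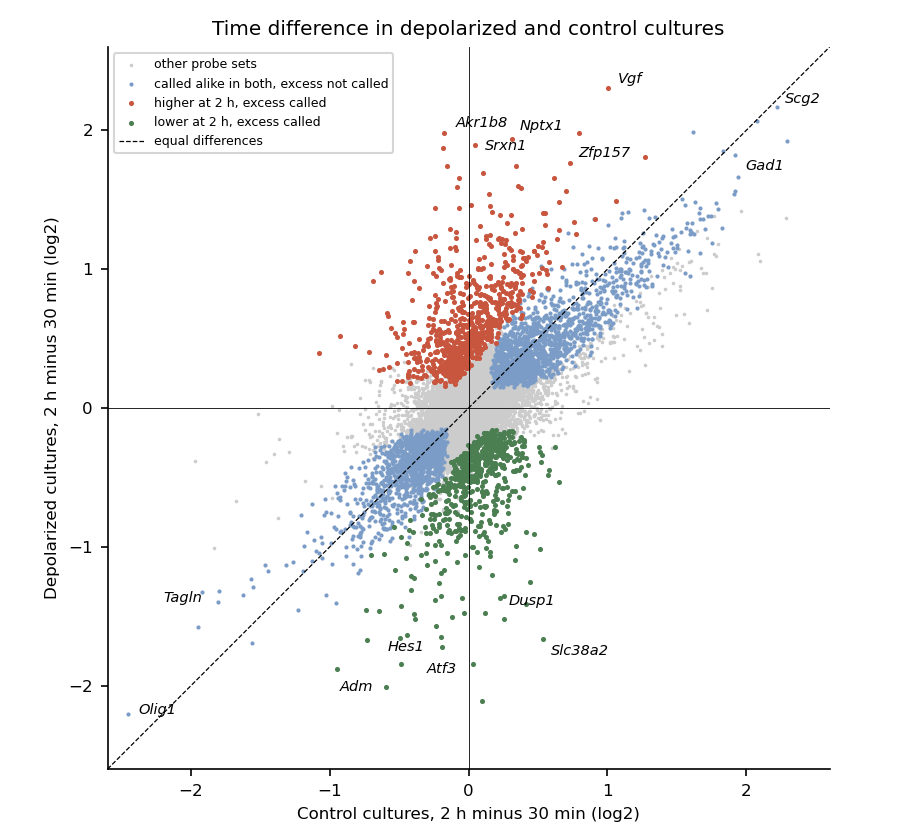
Each point is a probe set, with its 2 h minus 30 min difference in control cultures on the x axis and in depolarized cultures on the y axis, both in log2 units. Blue points, called alike in both conditions, lie along the dashed line of equal differences, whereas the 748 red and 626 green points, with an excess call of the same sign as the depolarized difference, spread vertically near the middle of the control axis.

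Most immediate-early transcription factors fell. Of 34 measured genes of this list, each at its brightest probe set, 24 fell, 3 rose and 7 did not pass in depolarized cultures, with a median difference of -0.43. Over all 10411 genes 2382 fell (22.9%), 2155 rose (20.7%) and the median was -0.05. In controls 15 of the 34 fell and 2 rose (median -0.24, against 17.5% and 19.1% of all genes), and the excess was called negative for 11 and positive for 2 (7.18% and 6.9% of all genes). These shares over all genes are the background for the counts of every list that follows.

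The promoters of 4 genes that fell are shown because their bases carry elements known to take part in activity-dependent transcription. Capitals mark the palindromic cyclic AMP response element TGACGTCA, which CREB and ATF factors bind, in Dusp1 and Ier2, and the CArG element, which serum response factor binds, in Zfp36 and Egr2. Each line gives 140 bases that end just before the first listed transcription start in RefSeq, 5′ to 3′ on the gene's strand, on build GRCr8: chr10:17184713-17184852 (plus) for Dusp1, chr19:40399233-40399372 (plus) for Ier2, chr1:92799109-92799248 (minus) for Zfp36 and chr20:21054442-21054581 (minus) for Egr2.
Dusp1: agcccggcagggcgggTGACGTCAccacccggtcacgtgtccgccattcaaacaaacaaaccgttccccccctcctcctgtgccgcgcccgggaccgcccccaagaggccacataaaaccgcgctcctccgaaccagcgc
Ier2: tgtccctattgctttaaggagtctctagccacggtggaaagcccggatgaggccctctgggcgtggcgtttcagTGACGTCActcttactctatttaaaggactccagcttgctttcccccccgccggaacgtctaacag
Zfp36: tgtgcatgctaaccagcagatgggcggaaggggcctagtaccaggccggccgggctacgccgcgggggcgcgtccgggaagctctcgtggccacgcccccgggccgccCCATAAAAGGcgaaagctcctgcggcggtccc
Egr2: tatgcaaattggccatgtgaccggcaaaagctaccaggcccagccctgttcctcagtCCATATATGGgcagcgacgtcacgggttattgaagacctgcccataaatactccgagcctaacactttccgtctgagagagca

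Atf3, a stress-induced factor that often acts as a repressor, gave log2 values of 9.61, 9.87 and 9.30 at 30 min and of 7.87, 7.34 and 8.03 at 2 h in depolarized cultures, against 6.63 to 6.76 in all 6 controls. The arrays of the 2 collections did not overlap, and all 3 depolarized arrays stayed above every control at 2 h. Atf3 fell by 1.85 (SE 0.15, 3.6-fold, limma adjusted p = 1.03e-07), with an excess of -1.88 (SE 0.21, limma adjusted p = 2.27e-05). Junb, a partner in the AP-1 transcription factor, fell from 10.48, 10.28 and 9.93 to 8.92, 8.19 and 8.64. Its difference was -1.65 (SE 0.15) in depolarized and -0.20 (SE 0.15, not called) in control cultures. Jun fell by 1.50 (SE 0.10) at its clearest probe set, and its other probe sets fell by 1.17 and 1.49. At 2 h the brightest Jun probe set was 0.14 (SE 0.08) above controls and did not pass, whereas the other 2 were called 0.37 and 0.45 above them.

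Klf6, a zinc finger factor, was at 11.26, 11.36 and 11.39 at 30 min and at 10.11, 9.50 and 10.16 at 2 h. It fell by 1.41 (SE 0.13), while controls rose from 8.61, 8.59 and 8.43 to 8.94, 9.11 and 8.82 (0.41, SE 0.13, limma adjusted p = 0.0224), which gave an excess of -1.83. A brighter Klf6 probe set fell by 1.35, and its rise in controls did not pass (0.26, limma adjusted p = 0.0917). Ier2, whose promoter is shown above, fell by 1.43 (SE 0.14) in depolarized and by 0.48 (SE 0.14) in control cultures, with an excess of -0.95.

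The Egr factors, zinc finger proteins that read synaptic activity, fell with more spread between arrays. Egr1 was at 13.03, 13.13 and 12.77 at 30 min and at 11.53, 10.47 and 11.29 at 2 h. It fell by 1.88 (SE 0.19) in depolarized and by 0.95 (SE 0.19) in control cultures, and at 2 h it was still 2.59 above controls. Egr2 was at 10.45, 10.40 and 10.21 and then at 9.45, 7.80 and 9.09, so that 1 array lay well below the others of its group. Without that array, depolarized replicate 5, the fall of Egr2 was 1.08 in place of 1.57 and its excess -0.85 in place of -1.34. The excess calls of Egr1 (-0.93, limma adjusted p = 0.0282) and Egr2 (limma adjusted p = 0.0294) ended under a trended robust prior (limma adjusted p = 0.0896 and 0.103). A dimmer Egr2 probe set fell by 0.72, with an excess of -0.54 that did not pass. The excess calls of both genes also ended when any of several single arrays was left out.

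Fos, the founding member of the AP-1 family, remained well above controls at 2 h. Its responding probe set was at 10.89, 11.25 and 11.01 at 30 min and at 10.37, 10.42 and 10.33 at 2 h, while all controls lay between 6.90 and 7.08. The 2 collections did not overlap, and every depolarized array of both was above every control. Fos fell by 0.68 (SE 0.08, limma adjusted p = 7.54e-06; excess -0.67), and a Fos probe set that was not called against controls at 30 min did not pass (-0.13, limma adjusted p = 0.111). At 2 h Fos was still 3.39 (SE 0.08) above controls. The orphan nuclear receptors Nr4a1 and Nr4a3 fell by 0.74 and 0.46, with excesses of -0.56 and -0.37 that did not pass, and a dimmer Nr4a3 probe set was not called (-0.13).

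**Figure D2:**
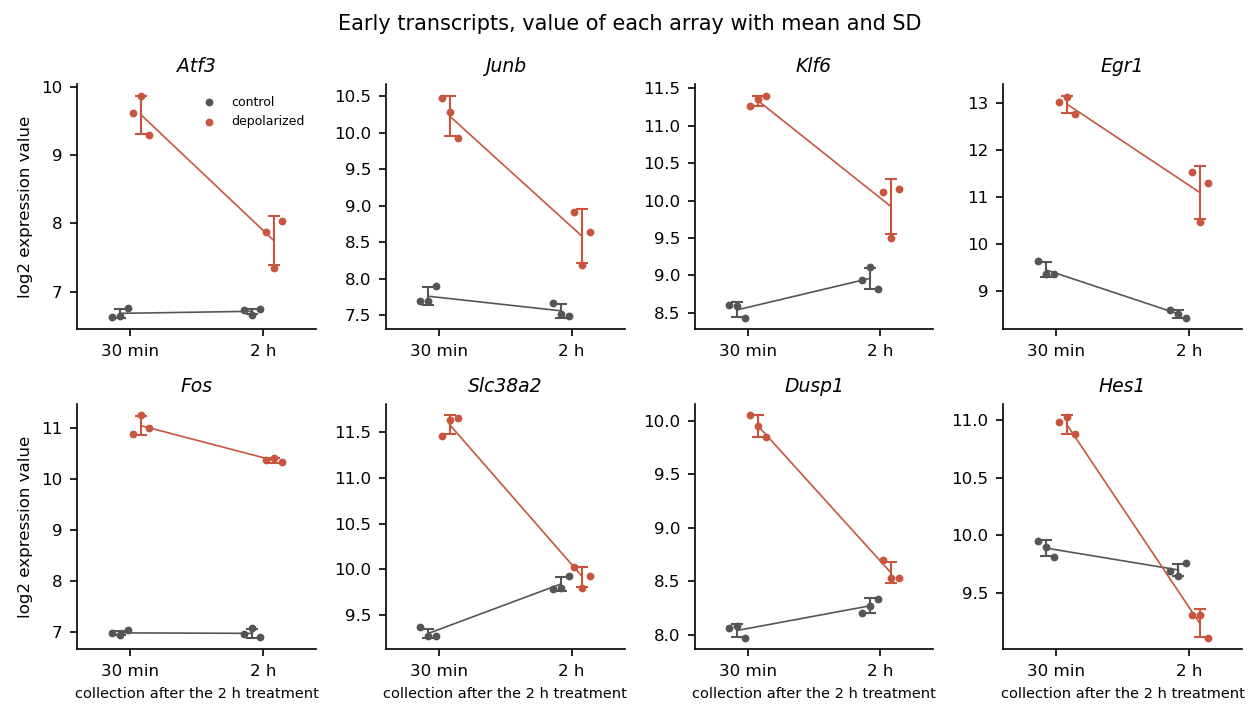
For 8 early transcripts, points give the log2 value of each array (y axis) at 30 min and 2 h (x axis) in control (grey) and depolarized (red) cultures, and lines join group means with SD bars (n = 3). Slc38a2 met the control level at 2 h and Hes1 crossed below it, whereas Fos and Egr1 stayed far above it.

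The list of early factors was not uniform. Fosb, a slower AP-1 member, was at 8.16, 8.02 and 7.91 at 30 min and at 8.89, 9.38 and 9.21 at 2 h, with controls between 5.81 and 6.32. All 3 late arrays lay above all 3 early ones, and Fosb rose by 1.13 (SE 0.12, limma adjusted p = 2.19e-06; excess 1.37). Fosl1 rose by 0.87 (SE 0.15; excess 0.89). Thus within the AP-1 subunits Junb, Jun and Fos fell while Fosb and Fosl1 rose over the same interval. Nr4a2, a nuclear receptor needed by dopaminergic neurons, rose by 0.25 (SE 0.08, limma adjusted p = 0.0219) against 0.86 in controls. That call ended without depolarized replicate 3, 5 or 6 (0.19 to 0.23). Unlike Fosb and Fosl1, Nr4a2 rose less than in controls, and its excess was called negative (-0.63 without depolarized replicate 5, limma adjusted p = 0.00334). A dimmer Nr4a2 probe set was not called (0.07), and its excess of -0.43 did not pass. Nab2, a corepressor of Egr factors, was at 10.01, 9.93 and 9.80 and then at 10.89, 9.75 and 10.55, and did not pass (0.49, limma adjusted p = 0.0507). Without depolarized replicate 5 the difference of Nab2 was 0.81 (limma adjusted p = 2.56e-05), and with dim probe sets left out of the fit its adjusted p was 0.0369.

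That array was the lowest of its group in 26 of the 34 early factors, with a median deviation of -0.16 from the group mean, and in 17 of 28 early effectors. Its part in the results was not tested beyond the fits without it.

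Of 28 measured early effector genes 13 fell, 6 rose and 9 did not pass (median -0.25), where 22.9% of all genes fell and 20.7% rose, so that the rises were near the background. There were 7 falls and 5 rises in controls, and the excess was called negative for 9 and positive for 4 (7.18% and 6.9% of all genes). Adm, which encodes the vasoactive peptide adrenomedullin, was at 9.21, 9.75 and 9.42 at 30 min and at 7.77, 7.15 and 7.43 at 2 h. Its arrays did not overlap, and it fell by 2.01 (SE 0.13, 4.03-fold, limma adjusted p = 2.32e-08) in depolarized and by 0.60 in control cultures. Ccn1, a matricellular protein, fell by 1.84 (SE 0.09) from 6.76, 7.02 and 6.95 to 5.22, 4.94 and 5.05. At 2 h the difference of Ccn1 from controls was 0.23 (SE 0.09) and did not pass (limma adjusted p = 0.0655). Arc, a synaptic regulator of AMPA receptors, was at 11.01, 10.88 and 10.25 and then at 9.70, 8.70 and 9.17. Arc fell by 1.52 (SE 0.20) and its excess of -1.14 (limma adjusted p = 0.0128) did not pass under a trended robust prior (limma adjusted p = 0.0532).

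Homer1, a postsynaptic scaffold whose short early form and long forms come from one gene, gave opposite differences at its probe sets. One probe set was at 7.97, 7.97 and 8.07 at 30 min and at 9.05, 8.64 and 8.99 at 2 h and rose by 0.89 (SE 0.12, limma adjusted p = 2.57e-05; excess 0.89). Another was at 8.21 to 8.59 and then at 7.63, 7.47 and 8.0 and fell by 0.70 (SE 0.12, limma adjusted p = 0.000215; excess -0.71). In controls both differences were 0.01 and not called, and which transcript each one reads was not determined. The brightest Homer1 probe set rose by 0.27 in depolarized and by 0.24 in control cultures, and the remaining 2 did not pass.

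The largest negative excess of any probe set with a gene name belonged to Slc38a2, which carries neutral amino acids into cells with sodium. It was at 11.46, 11.63 and 11.65 at 30 min and at 10.03, 9.80 and 9.93 at 2 h in depolarized cultures, while controls went from 9.37, 9.27 and 9.27 to 9.79, 9.80 and 9.93. The depolarized arrays lay far above controls at 30 min and overlapped with them at 2 h. Slc38a2 fell by 1.66 (SE 0.07) in depolarized cultures and rose by 0.53 (SE 0.07) in controls, an excess of -2.19 (SE 0.11, limma adjusted p = 6.4e-09). Dusp1, a phosphatase that switches off MAP kinases, fell from 10.05, 9.95 and 9.85 to 8.70, 8.53 and 8.53. Its fall of 1.37 (SE 0.07) stood beside a rise of 0.23 (SE 0.07) in controls at this probe set, and a dimmer Dusp1 probe set fell by 1.37 with no call in controls (-0.05).

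Some transcripts ended below controls. Hes1, a repressor of neuronal differentiation in the Notch pathway, was at 10.98, 11.03 and 10.88 at 30 min and at 9.31, 9.31 and 9.11 at 2 h, against 9.69, 9.65 and 9.76 in controls at 2 h. It moved from 1.07 above controls to 0.45 below them (limma adjusted p = 0.000252), and all 3 arrays lay beyond all 3 controls each time. Hes5, its paralog, fell by 0.89 (SE 0.09) to 0.75 below controls, although another Hes5 probe set did not pass (-0.15, limma adjusted p = 0.106). Ccng2, an atypical cyclin of quiescent cells, fell by 1.25 while controls rose by 0.45, and ended 0.64 below controls. Pnrc1, a nuclear receptor coactivator, fell by 1.47 and ended 0.57 below controls at its responding probe set, and a dimmer one did not pass (-0.10). Taf5, a subunit of the general factor TFIID, fell by 1.0 and Cnot4, a ubiquitin ligase of the CCR4-NOT deadenylase, by 1.20, both to levels below controls (-0.55 and -0.54).

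The 15 largest falls in depolarized cultures were led by Olig1, Adm, Egr1, Atf3, Ccn1 and Hes1. At 30 min 13 of these 15 genes had all depolarized arrays above all controls, as 17.9% of all probe sets did, although choosing large falls favours genes high at 30 min, and at 2 h 9 were above, 1 below and 3 overlapping. The other 2, Olig1 and Ctsc, overlapped with controls both times. The remainder of the 15 included Cks2, a cell cycle regulator (-1.67), Baz1a, a chromatin remodelling subunit (-1.65), and Zfp36, which targets AU-rich mRNAs for decay (-1.64). Zfp36 was at 10.04, 10.01 and 9.79 and then at 8.35, 8.09 and 8.49, with an excess of -1.19.

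Among 30 measured mRNA decay factors 13 fell, 4 rose and 13 did not pass (median -0.10), against 4 falls and 2 rises in controls, and the excess was called negative for 9 and positive for 1 (all genes 22.9% falls, 20.7% rises, and 7.18% and 6.9% excess calls). Btg1, an antiproliferative protein that recruits deadenylases, fell by 0.70 (SE 0.07), and the positive excess was that of Tut1, described further on. Of 74 splicing factors 26 fell and 8 rose (median -0.12; 10 and 7 in controls), with an excess called negative for 9 and positive for 5, both near the background. Prpf4b, a spliceosomal kinase, was at 10.95 to 11.11 and then at 10.08, 10.04 and 10.07, a fall of 0.96 (SE 0.07). Rbm15, an RNA-binding adaptor of the m6A writer complex, also fell by 0.96 (SE 0.10), and neither gene was called in controls.

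Genes of sterol biosynthesis, which make cholesterol under the control of SREBP factors, rose in controls and for the most part were not called in depolarized cultures. In controls 18 of 27 rose and 0 fell (median 0.24, where 19.1% of all genes rose), whereas in depolarized cultures 8 fell, 3 rose and 16 did not pass (median -0.08). The 8 falls were near the 22.9% of all genes that fell. The excess was called negative for 11 and positive for 0 (7.18% and 6.9% of all genes). Msmo1, the sterol methyl oxidase, fell from 12.17, 12.07 and 12.12 to 11.30, 11.06 and 11.32 (-0.89, SE 0.07) while controls rose by 0.24, and at 2 h its difference from controls did not pass (0.17, limma adjusted p = 0.0986). Sqle, squalene epoxidase, fell by 0.66 and Insig1, which retains SREBP in the endoplasmic reticulum, by 0.68. Idi1, an isomerase of the pathway, fell by 0.49 against a rise of 0.57 in controls. Scd, a fatty acid desaturase on the same list, rose alike in both conditions, by 0.65 and 0.67.

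The late transcripts included secreted and synaptic proteins. Of 33 measured late activity-regulated genes 17 rose, 3 fell and 13 did not pass in depolarized cultures (median 0.27, against -0.05 over all genes), beside 13 rises and 3 falls in controls (median 0.04). The excess was called positive for 9 and negative for 1, and its median over the list was only 0.04, against -0.02 over all genes. Promoters of 2 late genes are shown for the elements they carry near the start. Capitals mark TGACGTCA in Vgf and the AP-1 site TGAGTCA, where FOS and JUN dimers bind, in Srxn1. The lines give the 140 bases before the first listed RefSeq start on build GRCr8, at chr12:25277021-25277160 (minus) for Vgf and chr3:161064672-161064811 (plus) for Srxn1.
Vgf: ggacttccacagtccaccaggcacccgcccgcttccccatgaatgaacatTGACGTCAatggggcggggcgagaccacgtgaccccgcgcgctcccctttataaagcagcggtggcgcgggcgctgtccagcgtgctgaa
Srxn1: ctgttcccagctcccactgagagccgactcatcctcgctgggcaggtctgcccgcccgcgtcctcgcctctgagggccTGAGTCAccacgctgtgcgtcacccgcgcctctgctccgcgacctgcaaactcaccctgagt

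Vgf, a neuropeptide precursor of neurons and endocrine cells, was at 8.52, 8.29 and 8.43 at 30 min and at 10.72, 10.43 and 11 at 2 h in depolarized cultures. Controls went from 7.54, 7.68 and 7.80 to 8.73, 8.79 and 8.51, so that depolarized arrays were above controls both times. Vgf rose by 2.31 (SE 0.12, 4.95-fold, limma adjusted p = 2.35e-09), the largest rise of any probe set, and its excess was 1.31 (SE 0.17). Nptx1, neuronal pentraxin, which clusters AMPA receptors, went from 6.60, 6.56 and 6.46 to 8.56, 8.08 and 8.80. At 30 min Nptx1 was not called against controls (0.33, limma adjusted p = 0.0847), and it rose by 1.94 (SE 0.13; excess 1.63).

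Bdnf, a neurotrophin, was at 6.56, 6.58 and 6.60 and then at 7.04, 7.05 and 7.05. It rose by 0.47 (SE 0.06, limma adjusted p = 2.09e-05; excess 0.44), and its dimmer probe set was not called (-0.02). Tnfrsf12a, the receptor of the cytokine TWEAK, was at 9.51, 9.45 and 9.34 and then at 10.70, 9.76 and 10.33, a rise of 0.83 (SE 0.16; excess 0.99). Lmna, which encodes nuclear lamins A and C, rose by 1.03 (SE 0.12; excess 1.15). Hbegf, an EGF receptor ligand counted among the early effectors, was at 7.38, 7.22 and 7.07 and then at 8.93, 7.57 and 8.64. It rose by 1.16 (SE 0.22, limma adjusted p = 0.000582; excess 1.26), with 1 of the late arrays only slightly above the early ones. Pde10a, a phosphodiesterase of cyclic nucleotides, rose by 1.98 in depolarized and by 0.79 in control cultures, and its other probe set by 1.59 and 0.37.

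Several antioxidant genes driven by the factor NRF2 rose. Of 27 measured 11 rose, 6 fell and 10 did not pass (median 0.10), whereas in controls 3 rose and 10 fell (median -0.12), and the excess was called positive for 10 and negative for 1. Akr1b8, an aldo-keto reductase, was at 7.09, 7.05 and 7.0 at 30 min and at 9.11, 8.91 and 9.06 at 2 h, while controls lay between 6.66 and 6.99. The early depolarized arrays lay just above the controls of their time without a call (0.13, limma adjusted p = 0.212), and the late ones were far above every control. Akr1b8 rose by 1.98 (SE 0.07, limma adjusted p = 6.67e-11), an excess of 2.16 (SE 0.10), the largest positive excess among the genes named here.

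Srxn1, sulfiredoxin, which repairs oxidized peroxiredoxins, was already raised at 30 min. It was at 10.15, 10.01 and 9.86 and then at 12.01, 11.70 and 12, against 8.85 to 9.02 in controls. It rose by 1.90 (SE 0.09; excess 1.85) to 2.95 above controls. Hmox1, heme oxygenase, also started above controls (by 1.09) and rose by 0.73 (SE 0.10), whereas Gclc, the catalytic subunit of glutathione synthesis, was not called against controls at 30 min (-0.03) and rose by 0.81 (SE 0.07). Nqo1, a quinone reductase, rose by 0.43 while controls fell by 0.48.

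Targets of serum response factor and its MRTF coactivators, mostly cytoskeletal genes, differed from controls in the same way. Of 38 measured 15 rose and 7 fell in depolarized cultures (median 0.07), 1 rose and 19 fell in controls (median -0.25), and the excess was called positive for 14 and negative for 0. Fhl2, a LIM-domain coactivator, was at 7.62, 7.37 and 7.93 at 30 min and at 9.29, 8.81 and 9.14 at 2 h, against 8.24, 8.16 and 8.20 in controls at 30 min. It lay below the controls of its time at 30 min and above them at 2 h, rising by 1.44 (SE 0.13; excess 1.69), and a brighter probe set rose by 1.59 (SE 0.07). Vcl, which encodes the focal adhesion protein vinculin, was at 9.24, 9.39 and 9.46 and then at 10.71, 10.50 and 10.57. Vcl rose by 1.23 (SE 0.07) while controls fell by 0.27, and its brighter probe set rose by 0.62 while controls fell by 0.47. Lgals3, galectin-3, went from 9.05, 9.07 and 8.96 to 10.80, 10.13 and 10.76 (1.54, SE 0.12), and Tes, a focal adhesion protein, rose by 1.22. Tagln, of the same list, fell by 1.40 in depolarized and by 1.81 in control cultures, without an excess call.

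**Figure D3:**
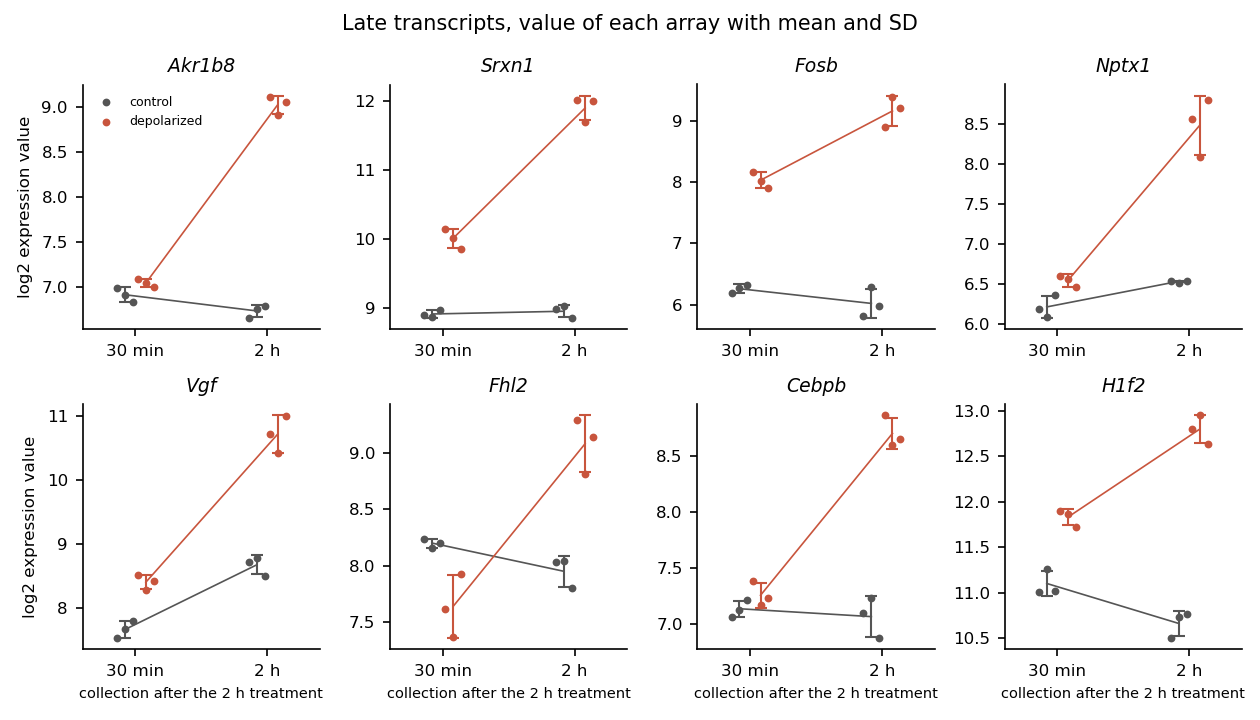
For 8 late transcripts, points give the log2 value of each array (y axis) at 30 min and 2 h (x axis) in control (grey) and depolarized (red) cultures, and lines join group means with SD bars (n = 3). Akr1b8, Nptx1 and Cebpb started close to controls, Fhl2 started below them, and Srxn1 and Fosb were already above them at 30 min.

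Stress-response and chromatin genes were mixed. Of 27 measured ATF4 target and pathway genes 12 rose and 6 fell (median 0.06; 6 and 4 in controls), with an excess called positive for 6 and negative for 3. Cebpb, a bZIP factor, was at 7.39, 7.17 and 7.24 and then at 8.86, 8.60 and 8.65, a rise of 1.44 (SE 0.09; excess 1.50) from a level that overlapped with controls. Slc7a1, a cationic amino acid transporter, rose by 1.0 at its clearest probe set, by 0.41 at another, and did not pass at a dim one. In the same list Slc38a2 fell, as did Ddit3, the stress factor CHOP (-0.59, with a rise of 0.33 in controls). Of 25 heat shock genes 8 fell and 5 rose, near the 22.9% and 20.7% of all genes. Their excess was called negative for 5 and positive for 4, where 7.18% and 6.9% of all genes were called. Chordc1 (-0.85) and Dnajb4 (-0.64), both cochaperones, were among the falls and the cochaperone Dnajb5 (0.76) among the rises. A dimmer Dnajb5 probe set was not called (0.17, limma adjusted p = 0.0985). H1f2, a linker histone, rose by 0.97 (SE 0.10) while controls fell by 0.44, from 11.90, 11.86 and 11.72 to 12.80, 12.95 and 12.64. H2ac25, a core histone, rose by 0.83 (excess 0.77), and of 14 histone genes 3 rose and 4 fell, again near the background. In controls 0 of the 14 rose and 4 fell, and the excess was called positive for 3 and negative for 0.

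In 227 probe sets (1.43%) all 3 depolarized arrays were below all 3 controls at 30 min and above them at 2 h. Of the 10 largest positive excesses, a choice that favours this course, 6 genes followed it: Slc16a6, Fhl2, Tmem100, Metrnl, Spsb1 and Vcl. Slc16a6, a monocarboxylate transporter family member, was at 7.85, 7.68 and 7.39 at 30 min and at 9.60, 9.32 and 9.62 at 2 h, against 9.01, 8.87 and 8.84 and then 8.80, 8.77 and 8.59 in controls. It rose by 1.88 (SE 0.11; excess 2.06), from 1.27 below controls to 0.80 above them, and another probe set rose by 1.46. Spsb1, a substrate adaptor of a ubiquitin ligase, rose by 1.69 (SE 0.11) from 0.79 below to 0.80 above controls.

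In some genes the control fell over the same interval. Tmem100 rose by 0.98 (SE 0.09) while controls fell by 0.63, and Metrnl, a secreted meteorin-like protein, rose by 0.91 while controls fell by 0.69. Inhbb, a subunit of activins and inhibins, rose by 1.06 against a fall of 0.42. Ubash3b, a phosphatase of receptor signalling, rose by 1.09 against a fall of 0.22, and the BMP antagonist Nog rose by 0.97 against a fall of 0.26. Lysmd3 went the other way, falling by 1.01 in depolarized cultures while controls rose by 0.51. Altogether 249 probe sets (3.83% of those that changed) were called in opposite directions in the 2 conditions with an excess call, 116 rising and 133 falling in depolarized cultures. The count of 133 was 74 without control replicate 3 or 5, 79 without control replicate 2 and 84 without control replicate 4.

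Other rises led back toward the control level. Zfp157, a zinc finger gene, was at 7.27, 7.37 and 7.39 at 30 min and at 9.07, 9.18 and 9.07 at 2 h, against 8.78, 8.66 and 8.80 and then 9.49, 9.46 and 9.49 in controls. It rose by 1.76 (SE 0.06; excess 1.03), and all depolarized arrays were below the controls of their time both times. C17h7orf25, an open reading frame gene, rose by 1.74 (SE 0.09) from 1.42 below controls to a level that overlapped with them (-0.02). Tut1, a terminal uridylyltransferase, was at 7.39, 7.18 and 7.37 and then at 8.49, 8.57 and 8.60, a rise of 1.24 (SE 0.08) that left it 0.35 below controls. Zik1, another zinc finger gene, rose by 1.48 in depolarized and by 0.65 in control cultures. Xbp1, a factor of the unfolded protein response, went from 9.61, 9.81 and 9.81 to 10.64, 10.58 and 10.66, beside 10.50 to 10.64 in all controls, and rose by 0.89 (SE 0.07; excess 0.83). Most genes of its list went the other way: of 22 chaperone and unfolded protein response genes 13 fell and 2 rose (median -0.26). In controls 12 of the 22 fell and 0 rose (median -0.22), and the excess was called positive for 2 and negative for 1. Sesn1, a p53 target, rose by 0.73 from 1.01 below controls to 0.39 below them. Of 122 measured zinc finger factor genes 51 rose and 19 fell (median 0.13), beside 35 and 8 in controls (median 0.09), with an excess called positive for 21 and negative for 10.

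Genes called with the same sign in both conditions, without an excess call, included neuronal and cell cycle genes. A missing excess call does not show that the 2 differences were equal. Scg2, secretogranin II of dense-core vesicles, was at 8.43, 8.52 and 8.56 and then at 10.60, 10.66 and 10.74 in depolarized cultures, and at 7.21, 7.07 and 6.80 and then at 9.06, 9.30 and 9.39 in controls. It rose by 2.17 (SE 0.10) and 2.22 (SE 0.10), with depolarized arrays above controls each time and no excess call (-0.05, limma adjusted p = 0.881). Gad1, the GABA-synthesizing enzyme, went from 8.70, 8.64 and 9.27 to 10.78, 10.76 and 10.54 (1.82, SE 0.18) and rose by 1.92 in controls, overlapping with them both times. Its dimmer probe set rose by 0.76 and 0.53. Vsnl1, a neuronal calcium sensor, rose by 1.93 and 2.29, Pfkp, a phosphofructokinase, by 1.85 and 1.84, and Spetex2l2 by 2.07 and 2.08. One Gnas probe set rose by 1.66 in depolarized and by 1.94 in control cultures, whereas the brightest did not pass (0.15, limma adjusted p = 0.0509).

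Pan-neuronal markers rose in 15 of 18 measured genes and fell in 0 in depolarized cultures (median 0.87), and rose in 16 and fell in 0 in controls (median 1.05). The mean over these markers was 10.16 to 10.27 in the depolarized arrays at 30 min and 10.96 to 11.07 at 2 h, and 10.00 to 10.22 and then 11.05 to 11.08 in controls. These ranges did not overlap between collection times and nearly coincided between conditions. The excess was called negative for 2 of the 18 and positive for 0, with a median of -0.17, against -0.02 over all genes. Stmn2, a growth-cone microtubule regulator, rose by 1.18 and 1.50 and Gap43, a growth cone protein, by 1.15 and 1.27. Neuronal cytoskeleton and growth genes rose in 23 of 31 and fell in 0, beside 24 and 0 in controls. Their excess was called negative for 2 and positive for 0.

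Falls shared with controls were led by Olig1, a factor of oligodendrocyte precursors, which went from 11.74, 12.21 and 12.14 to 9.81, 9.66 and 10.02 in depolarized cultures and from 11.98, 12.51 and 12.21 to 9.77, 10.06 and 9.50 in controls. It fell by 2.20 (SE 0.15, 4.6-fold) and 2.45 (SE 0.15), and the conditions overlapped both times. Ctsc, a lysosomal protease, fell by 1.69 and 1.56, and Tagln, a smooth muscle actin-binding protein, by 1.40 and 1.81. Cell cycle and mitosis genes fell in 36 of 47 and rose in 1 (median -0.66), beside 40 falls and 1 rise in controls (median -0.51). The excess was called negative for 5 and positive for 3 of the 47 (7.18% and 6.9% of all genes). Plk1 and Ube2c fell by 0.93 and 1.06 against 0.48 and 0.70 in controls, with excess calls (-0.44 and -0.35). The proliferation marker Mki67 fell by 1.40 and 0.96 and the mitotic cyclin Ccnb1 by 1.35 and 1.03, with excesses of -0.45 and -0.32 that did not pass. For other cell classes, the mean over astrocyte markers was 9.30 to 9.37 in the depolarized arrays at 30 min and 9.27 to 9.37 at 2 h. In controls it went from 9.38 to 9.45 at 30 min to 9.26 to 9.32 at 2 h, without overlap. That of microglia markers was 7.07 to 7.25 and then 6.94 to 7.09, beside 7.02 to 7.05 and then 6.83 to 6.99 in controls. That of progenitor markers was 10.81 to 10.88 and then 10.31 to 10.40, beside 10.74 to 10.81 and then 10.42 to 10.52 in controls. The part of cell composition in the time difference was not tested.

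**Figure D4:**
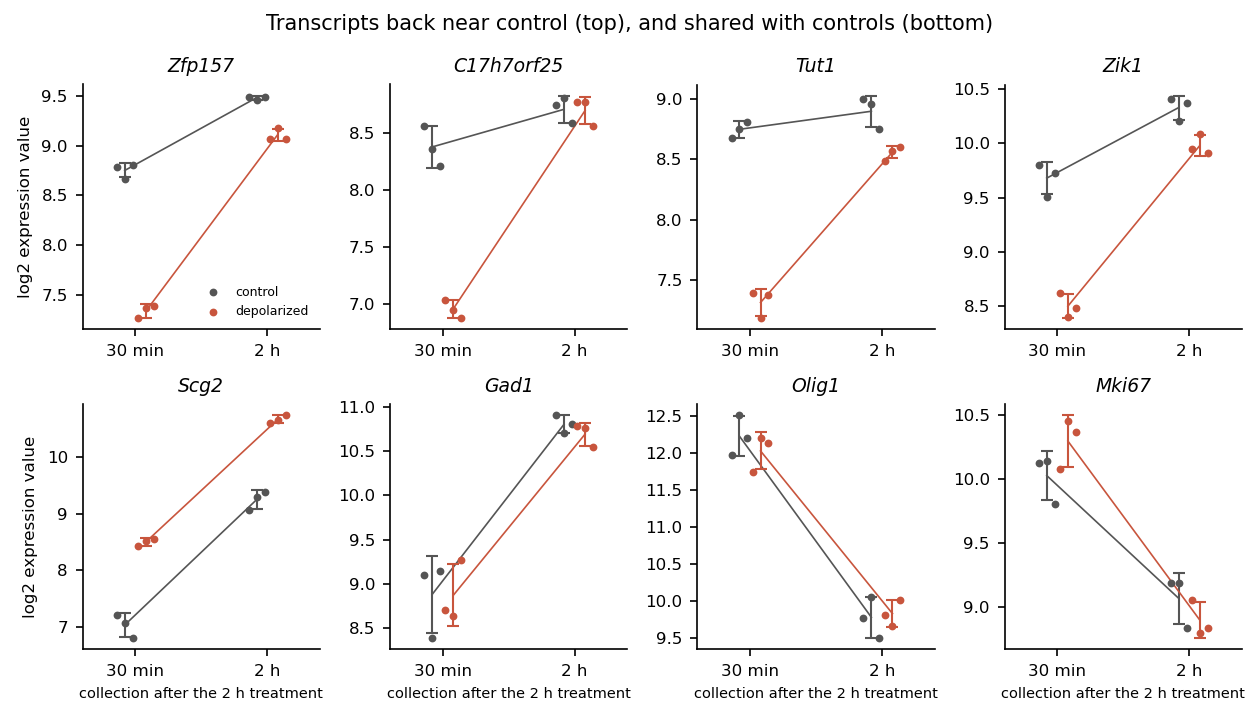
Points give the log2 value of each array (y axis) at 30 min and 2 h (x axis) in control (grey) and depolarized (red) cultures, and lines join group means with SD bars (n = 3). In the top row depolarized cultures started at least 1.18 log2 units below controls and approached them at 2 h. In the bottom row both conditions changed in the same direction without an excess call. There Scg2 was offset upward in depolarized cultures, and Mki67 fell by 1.40 in depolarized and by 0.96 in control cultures.

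Several feedback inhibitors of receptor tyrosine kinase signalling fell in both conditions and were above controls at both collections. Dusp6, a phosphatase specific for ERK, was at 11.82, 12.22 and 12.12 and then at 11.06, 10.46 and 10.67, and fell by 1.32 (SE 0.15) against 1.80 in controls. It was 1.29 above controls at 30 min and 1.77 above them at 2 h, with an excess of 0.48 that did not pass (limma adjusted p = 0.16). Spry1 and Spry2, inhibitors of the Ras pathway, fell by 1.23 and 1.13 against 1.57 and 1.31. Dusp14, of the same phosphatase family, rose by 1.09 (SE 0.08; excess 0.97), so that of 12 genes of this list 5 fell and 3 rose.

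Some rises were smaller in depolarized cultures than in controls. Of the 179 probe sets with an excess against their sign, 164 rose and 15 fell in depolarized cultures. Gabrb2, a GABA-A receptor subunit, went from 8.34, 8.30 and 8.59 to 9.07, 9.24 and 9.03, against 8.22, 7.92 and 8.26 and then 9.91, 9.84 and 9.80 in controls. It rose by 0.70 (SE 0.10) and 1.72 (SE 0.10), an excess of -1.01 (limma adjusted p = 0.000129), and a dim probe set did not pass. Scn3a, a sodium channel, rose by 1.18 and 1.80, and Celf4, an RNA-binding protein on the pan-neuronal list, by 0.95 and 1.60. Glra2, a glycine receptor subunit, rose by 1.11 and 1.77, and another Glra2 probe set was called in neither condition (0.08 and 0.21).

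The series is titled as enriched in dopaminergic neurons. Th, the rate-limiting enzyme of dopamine synthesis, was at 7.78, 7.82 and 7.55 at 30 min and at 7.62, 8.22 and 7.76 at 2 h in depolarized cultures, with overlapping groups, and did not pass (0.15, SE 0.13, limma adjusted p = 0.368). In controls Th rose by 0.43 (limma adjusted p = 0.0172), and the excess of -0.28 did not pass. Ddc, the next enzyme of that pathway, rose by 1.15 and 1.47 at its responding probe set. Another Ddc probe set was called in neither condition (-0.02 and -0.26). Of 18 measured dopaminergic markers 9 rose and 1 fell in depolarized cultures, and equally 9 rose and 1 fell in controls, with an excess called negative for 2.

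Oxidative phosphorylation subunits fell in 31 of 76 and rose in 2 (median -0.12), beside 5 falls and 6 rises in controls, but the excess was called negative for only 3. Of 43 cytosolic ribosomal protein genes 18 fell and 0 rose (median -0.15), beside 11 falls and 0 rises in controls, and no excess was called. Pfkfb3, a glycolytic regulator, rose by 1.07 (excess 0.99), and a dimmer probe set rose by 0.34 (excess 0.64).

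**Figure D5:**
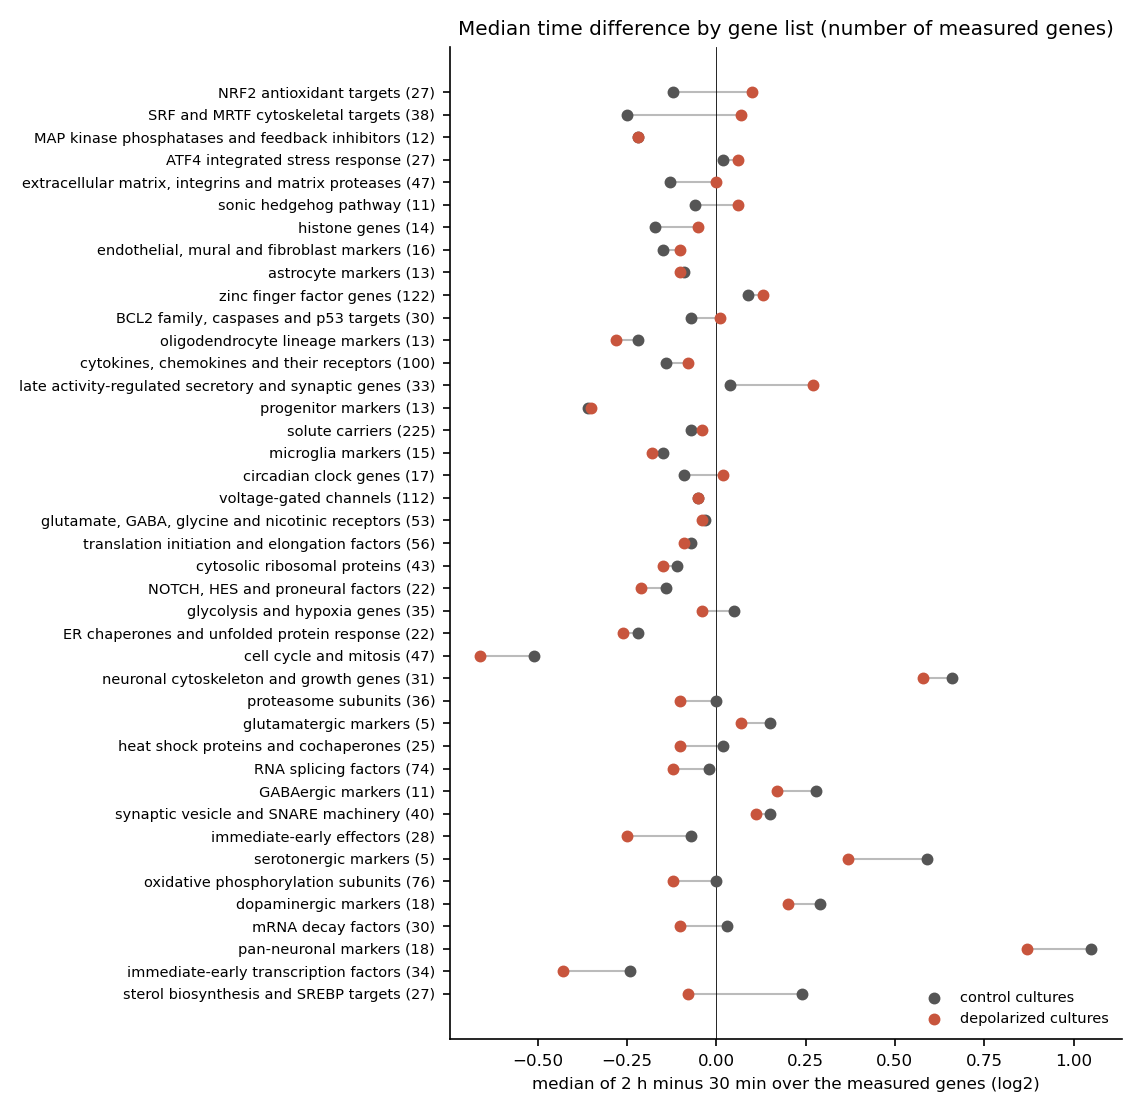
For each gene list, a point gives the median of 2 h minus 30 min over its measured genes (x axis, log2) in control (grey) and depolarized (red) cultures, ordered by the median excess, with the number of genes in brackets. Sterol genes, immediate-early factors and pan-neuronal markers lie at the bottom, with lower medians in depolarized cultures. NRF2 and SRF targets lie at the top, with medians of 0.10 and 0.07 against -0.12 and -0.25.

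The 250 bases before the first listed RefSeq start were searched on both strands in all 27457 promoters of build GRCr8. The full cyclic AMP response element TGACGTCA, which contains the shorter core TGACG, was present in 15 of 414 promoters (3.62%) of genes that fell with a negative excess and in 21 of 500 (4.2%) of genes that rose with a positive excess. It was present in 17 of 929 (1.83%) and 29 of 910 (3.19%) of genes that fell or rose alike in controls. Over the 8610 measured genes with a promoter the share was 2.65%, and over all promoters 1.7%. The AP-1 site TGANTCA was found in 4.35% and 4.8% of the 2 excess groups and in 4.89% of measured genes. The antioxidant element TGACNNNGC, which can overlap with the AP-1 site, was found in 15.7% and 17.4% of the excess groups and in 12.7% of measured genes. The CArG element was found in 2.17% and 1.8% against 1.3% of measured genes. In all promoters of that length these shares were 6.36%, 10.2% and 1.5%. The core TGACG was found in 35.3% and 33.8% of the excess groups, 26.6% of measured genes and 19% of all promoters. Shares of the E-box CACGTG were 8.21% and 10% against 7.91% of measured genes and 5.79% of all promoters, and those of the EGR site 0.725% and 1.2% against 0.952% and 0.514%. Those of the heat shock element were 5.56% and 6.4% against 5.84% and 7.23%, and those of the sterol element 1.21% and 1% against 1.02% and 0.976%. These matches are letters in a window and were not tested as binding sites.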

How the data were processed

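Each deposited value is a log2 summary of 1 probe set. The submitters' processing notes name RMA, and its version and which arrays were normalized together are not given in the sources used here. The log2 scale was read from the values, 4.41 to 14.58. Of 15923 probe sets 57 array controls were left out. Platform annotation of unknown age assigned a single symbol to 12783 probe sets, more than 1 symbol to 312 and no symbol to 2771. Arrays carry no read depth, so their number limits the precision, and no detection calls were used.

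A means model of the 4 groups (12 arrays, 8 residual degrees of freedom) was fitted with limma 3.58.1 in R 4.3.3, with no further normalization. Tests are two-sided, adjusted over 15866 probe sets. SEs and adjusted p-values in the text are from this fit, except where another fit is named beside them. In simulated arrays it recovered 38%, 88%, 100% and 100% of depolarized time differences of 0.25, 0.5, 1 and 2 log2 units (11 false calls), and 4%, 58%, 94% and 98% of excesses (9 false calls). Only 50 probe sets per size were changed there, with independent noise and no time difference in controls. In the real depolarized contrast 41% were called, so these figures need not carry over to the data.

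The comparison, lists and naming rule were chosen with earlier results of these data known. Named were the 15 largest rises and falls without overlap, the 10 largest excesses each way, 6 each way called opposite or alike in controls, up to 4 members per list by smallest p, and 31 fixed genes, of which 30 were measured. Idi1, Nqo1, Lmna, Hbegf, Ddit3 and the other probe sets were added after their values were seen. List genes were taken at their brightest probe set. Promoters came from RefSeq (GRCr8), with the first listed start of each gene. Alternatives were 3 scalings, a filter on dim probe sets, a trended robust prior, a threshold of 0.01, fits of the compared arrays alone, replicate blocks and each array left out.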

Additional observations from a re-analysis of the deposited data

Results flagged for a closer look

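The time difference itself differed between depolarized and control cultures, by the interaction test of limma, for 2055 probe sets. Of the genes chosen for naming or added to them, 20 were called in opposite directions in the 2 conditions with an excess call. The excess, depolarized minus control, was negative for Slc38a2 (-2.19), Klf6 (-1.83), Ccng2 (-1.70), Dusp1 (-1.59), Lysmd3 (-1.52), Taf5 (-1.34), Msmo1 (-1.13), Idi1 (-1.06), Dnajb4 (-1.01), Ddit3 (-0.93), Nfil3 (-0.90) and Sqle (-0.85). It was positive for Tmem100 (1.61), Metrnl (1.60), Vcl (1.50), Inhbb (1.48), H1f2 (1.41), Ubash3b (1.31), Nog (1.23) and Nqo1 (0.91). Groups of 3 arrays are too small for a test of single outlying arrays.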

How the results depend on the processing

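At an adjusted p under 0.01, falls in depolarized cultures numbered 2151 and in controls 1574, and excess calls 544 positive and 541 negative. At that threshold the changes with an excess of their own sign were 439 rises and 334 falls, the falls alike in controls 830, and the opposite calls 44 rises and 40 falls. With single arrays left out, the 133 falls with controls opposite ranged from 74 to 141, and the cause was not tested. The share of rises among depolarized calls was 46.8%, 41% after median centring and 53.4% after loess. It was 51.8% at an adjusted p under 0.01 and 50.6% without depolarized replicate 1. The larger direction thus turned under loess, at that threshold and without that array. Every list median printed above for depolarized cultures kept its sign under each alternative run, while 6 of those only plotted, all close to 0, turned under at least 1 (circadian, channel, receptor, solute carrier, matrix and apoptosis genes). Among named genes, 10 depolarized calls were lost under at least 1 alternative, those of Egr3, Nr4a2 and 8 members of marker or proteasome lists. For the same named probe sets, 15 excess calls and 23 control calls were lost under at least 1 alternative. Same-numbered control and depolarized arrays deviated together with correlations of -0.322 to 0.236, so the numbers were not taken as pairs. With the replicate block, fixed, 891 positive and 925 negative excess calls were made, and with a random block 929 and 990. In a window of 150 bases the AP-1 share was 1.45% and 2.2%, against 2.68% of measured genes. Simulated excesses of 0.25 were mostly missed.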
